A study of Mus musculus with 16 samples.

Results

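The immunoproteasome and its constitutive counterpart were followed through 10 genes in neutrophils sorted from the livers of 8 mixed bone marrow chimeras. The set comprised the inducible catalytic subunits Psmb8, Psmb9 and Psmb10, the inducible activator subunits Psme1 and Psme2, the constitutive catalytic subunits Psmb5, Psmb6 and Psmb7, the nuclear activator Psme3 and the assembly factor Pomp. Members were chosen by gene symbol, each matched to 1 Ensembl identifier of the deposited table, so that 10 of 54532 identifiers were taken, and all 10 passed the low-count filter that kept 9851 genes. Each mouse gave 1 Ifngr1_KO and 1 WT library, which makes 8 libraries per group. Ifngr1_KO neutrophils came from Ifngr1-/- CD45.2+ marrow and WT neutrophils from wild-type CD45.1+ marrow, mixed in equal parts (50% each) in C57BL/6 wild-type hosts irradiated with about 1000 cGy. All mice were reconstituted for 8 weeks, bore MC38 colon carcinoma cells in the flank and were given an agonist of the costimulatory receptor CD40 1 week after the tumour cells, with livers taken 2 days later. The animals' age and any untreated or tumour-free chimeras were not analysed here. Because the 2 marrows also differed in CD45 type, donor and sorting gate, an effect of any of these and an effect of the missing receptor cannot be told apart.

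The proteasome is the barrel-shaped protease that degrades ubiquitin-tagged proteins in the cytosol and nucleus. Its catalytic work is done by 3 of the beta subunits of the 20S core, encoded by Psmb6 (caspase-like activity), Psmb7 (trypsin-like activity) and Psmb5 (chymotrypsin-like activity). Interferon gamma (IFN-gamma) is a classical inducer of an alternative set, Psmb9 (LMP2), Psmb10 (MECL-1) and Psmb8 (LMP7), which take the places of Psmb6, Psmb7 and Psmb5 in newly assembled cores and favour peptides suited to MHC class I molecules. IFN-gamma also induces Psme1 and Psme2, the alpha and beta chains of the PA28 ring that caps the core, whereas Psme3 encodes PA28 gamma, which forms a separate ring in the nucleus. Pomp is the chaperone that guides the last steps of core assembly for both forms. The comparison asks how far the level of each subunit in liver neutrophils depends on their own IFN-gamma receptor when cells of both genotypes lie side by side in 1 animal.

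Promoter windows, from 250 bases before to 50 bases after each RefSeq transcript start in GRCm38.p6, were available for 9 of the 10 genes, all but Psmb7. They are shown for Psmb9, because it shares its promoter with the peptide transporter gene Tap1, for Psmb8 and Psme1, because these were the members with a match to an interferon response motif, and for Psmb5, the constitutive counterpart of Psmb8. In the Psmb9 window (chr17:34187281-34187580, minus strand) the capitals mark the 225 bases between the start of Tap1, which is read in the other direction, and the start of Psmb9. In the Psmb8 window (chr17:34197945-34198244, plus strand) they mark a match to the GAS motif of IFN-gamma target genes, TTCNNNGAA, whose first base lies 97 bases before the start. In the Psme1 window (chr14:55578244-55578543, plus strand) they mark a match on the opposite strand to an IRF element, GAAA with any 2 bases and a second GAAA after it, the letters bound by interferon regulatory factors, whose first base in the printed direction is base 10 of the transcript. The Psmb5 window (chr14:54617946-54618245, minus strand) held neither motif and has no capitals.
Psmb9: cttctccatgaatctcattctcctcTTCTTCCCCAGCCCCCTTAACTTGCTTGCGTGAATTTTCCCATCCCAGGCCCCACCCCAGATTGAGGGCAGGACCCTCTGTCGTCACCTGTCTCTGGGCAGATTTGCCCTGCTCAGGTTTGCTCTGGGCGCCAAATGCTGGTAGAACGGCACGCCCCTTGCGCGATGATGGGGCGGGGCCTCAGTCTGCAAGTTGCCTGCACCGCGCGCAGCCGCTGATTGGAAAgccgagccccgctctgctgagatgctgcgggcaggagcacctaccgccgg
Psmb8: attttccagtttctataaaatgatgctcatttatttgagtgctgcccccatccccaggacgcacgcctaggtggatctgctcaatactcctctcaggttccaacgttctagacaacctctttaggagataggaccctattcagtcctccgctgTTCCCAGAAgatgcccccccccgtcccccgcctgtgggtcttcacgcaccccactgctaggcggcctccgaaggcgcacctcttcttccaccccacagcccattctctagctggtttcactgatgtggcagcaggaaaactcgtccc
Psme1: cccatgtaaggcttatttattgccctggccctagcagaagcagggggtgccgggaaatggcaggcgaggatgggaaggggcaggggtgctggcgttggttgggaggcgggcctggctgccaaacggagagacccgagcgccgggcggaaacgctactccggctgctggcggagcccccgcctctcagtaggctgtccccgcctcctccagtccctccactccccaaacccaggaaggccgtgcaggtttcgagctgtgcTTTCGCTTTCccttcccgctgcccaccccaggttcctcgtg
Psmb5: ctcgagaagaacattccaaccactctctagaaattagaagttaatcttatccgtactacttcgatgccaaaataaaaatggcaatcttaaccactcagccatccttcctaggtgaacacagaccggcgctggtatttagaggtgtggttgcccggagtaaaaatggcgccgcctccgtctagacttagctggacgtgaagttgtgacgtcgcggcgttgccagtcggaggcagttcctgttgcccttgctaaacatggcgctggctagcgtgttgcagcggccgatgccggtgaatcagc
Both strands were searched. Among all 32851 windows of the table, 8.30% held TTCNNNGAA and 3.44% held the IRF element. No match was found in the windows of Psmb9, Psmb10, Psme2, Psmb5, Psmb6, Psme3 and Pomp, which says only that these letters are not in these 300 bases. The annotated spans of Psmb8, Psmb9 and Psme1 in GENCODE reach beyond the RefSeq starts used for the windows, so other starts of these genes were not covered.

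The libraries held 12.5 to 16.9 M estimated counts in Ifngr1_KO and 13.1 to 21.7 M in WT. Levels are given as CPM, counts divided by the library total after trimmed-mean (TMM) scaling. All levels are of transcripts, and no protein was measured here. Ifngr1 itself averaged 83.9 ± 29.5 CPM in Ifngr1_KO and 305 ± 46.6 CPM in WT (SD, n = 8) and was the lower of the pair in 8 of 8 mice. By the edgeR fit 26.1% of its WT level remained, and the source of the Ifngr1 counts in Ifngr1_KO was not tested. The summed level of 10 neutrophil markers ran from 28367 to 84154 CPM in Ifngr1_KO and from 33093 to 55471 CPM in WT. It was higher in Ifngr1_KO in 2 of 8 mice. Most of the sum was S100a8 and S100a9, which averaged 18576 and 11881 CPM in Ifngr1_KO and 13938 and 11986 CPM in WT. Of the 10 fold changes 7 were below 0. At an unadjusted p under 0.05 edgeR had 3 of the 10 lower and none higher, against 8.57% and 7.69% of all genes tested. EdgeR called 1 of these 10 markers lower (10%), Cxcr4, DESeq2 called 2 lower and limma-voom 3, and none was called higher. Of all genes tested, edgeR called 2.32% lower, DESeq2 5.81% and limma-voom 4.31%. These shares stand beside every marker list here. Sums of 6 monocyte markers were lower in Ifngr1_KO in all 8 mice, at 1457 to 2609 CPM in Ifngr1_KO and 2154 to 3406 CPM in WT, with 1 of 6 called (Ly6c2), and Ccr2 reached at most 3.60 CPM in any Ifngr1_KO library and 2.22 CPM in any WT library. Without Ly6c2 the monocyte sum was lower in Ifngr1_KO in 6 of 8 mice. Most of that sum was Csf1r, which was not called. Csf1r averaged 1287 ± 426 CPM in Ifngr1_KO and 1497 ± 192 CPM in WT (SD, n = 8). Sums of 9 Kupffer cell and macrophage markers were lower in all 8 mice, at 39.1 to 82.7 CPM in Ifngr1_KO and 53.3 to 154 CPM in WT, with Adgre1 called among 5 tested, Vsig4 at 0 in every library and Clec4f at no more than 0.505 CPM. Without Adgre1 the other 8 summed to 19.9 to 34.6 CPM in Ifngr1_KO and 17.9 to 38.9 CPM in WT, lower in Ifngr1_KO in 5 of 8 mice. C1qb, the highest of these 8, averaged 13.3 ± 2.93 CPM in Ifngr1_KO and 14.8 ± 6.10 CPM in WT. Sums of 6 B cell markers were also lower in all 8 mice, at 73.7 to 129 CPM in Ifngr1_KO and 160 to 284 CPM in WT, with Ighm called among 6 tested. Without Ighm the other 5 summed to 14.5 to 85.3 CPM in Ifngr1_KO and 9.90 to 45.5 CPM in WT, higher in Ifngr1_KO in 6 of 8 mice. EdgeR called none of the markers tested for hepatocytes (10 of 10 tested), erythroid cells and platelets (6 of 6), T and NK cells (3 of 10), endothelial and stellate cells (2 of 8) or dendritic cells (1 of 7). Hepatocyte markers summed to 591 to 2017 CPM in Ifngr1_KO and 502 to 1851 CPM in WT. Their sum was higher in Ifngr1_KO in 2 of 8 mice. At an unadjusted p under 0.05 edgeR had 2 of the 10 lower and 1 higher, against 8.57% and 7.69% of all genes tested. DESeq2 called 1 of the 10 lower, against 5.81% of all genes. Mitochondrially encoded mRNAs took a median of 1.40% of Ifngr1_KO counts (0.475 to 2.50%) and 0.569% of WT counts (0.294 to 1.19%), higher in Ifngr1_KO in 6 of 8 mice. The Ifngr1_KO library of mouse 7 had the highest mitochondrial share and stood apart from the rest, with a median correlation with the other libraries of 0.821, against at least 0.899 for each other library. The part of these markers in the results below was not tested.

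All 3 inducible catalytic subunits fell to between 27.8% and 33.4% of their WT level in neutrophils without the IFN-gamma receptor, and no Ifngr1_KO library reached the lowest WT library. Psmb8, whose product replaces the chymotrypsin-like subunit, was measured at 262 CPM in the lowest, 455 CPM in the median and 554 CPM in the highest Ifngr1_KO library, against 881, 1289 and 1710 CPM in WT. It averaged 443 ± 91.2 CPM in Ifngr1_KO and 1320 ± 260 CPM in WT (SD, n = 8), so that 33.4% of the WT level remained by the fitted log2 fold change of -1.58 (SE 0.12, 95% interval -1.84 to -1.32). Psmb9, whose product replaces the caspase-like subunit, ran from 143 over a median of 248 to 306 CPM in Ifngr1_KO and from 557 over 816 to 1155 CPM in WT. Its fitted change was -1.85 (SE 0.12, 95% interval -2.12 to -1.58), or 27.8% of the WT level. Psmb10, whose product replaces the trypsin-like subunit, was the least abundant of the 3 and ran from 57.9 over 79.2 to 138 CPM in Ifngr1_KO and from 201 over 285 to 413 CPM in WT. Its change was -1.83 (SE 0.17, 95% interval -2.21 to -1.44), or 28.2% of the WT level. In a bulk library, fewer cells that express a gene and less RNA per cell cannot be told apart.

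**Figure D1:**
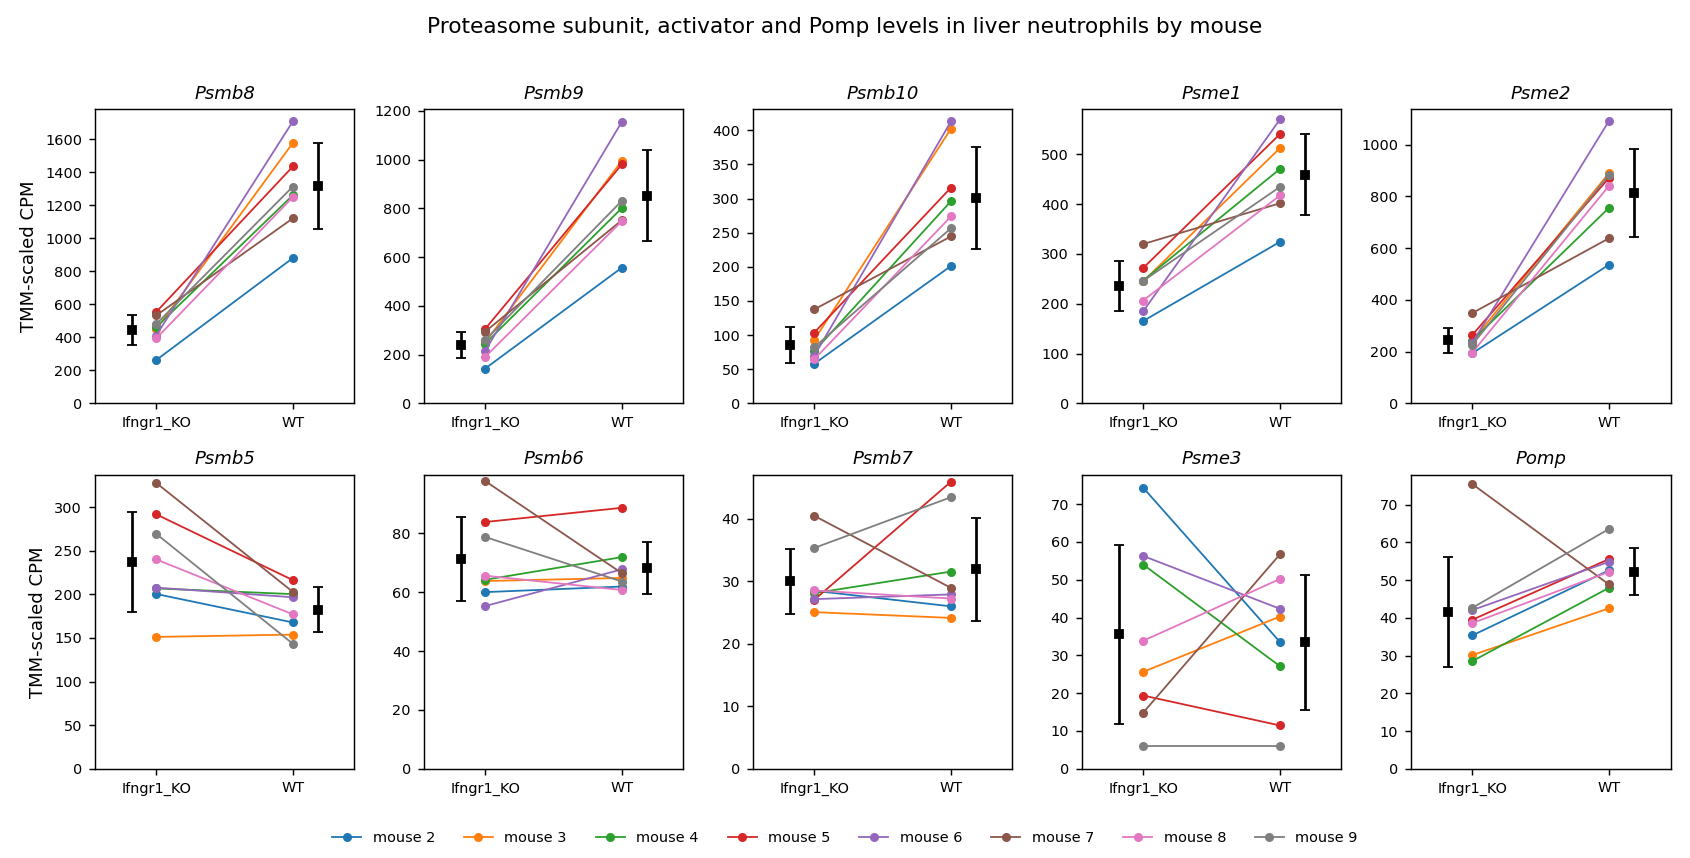
TMM-scaled CPM of the 10 genes in the Ifngr1_KO and WT libraries of each mouse (points joined by mouse), with mean and SD as squares and bars (n = 8). In the upper row all Ifngr1_KO libraries lie below all WT libraries of the same gene, and in the lower row the groups overlap.

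The inducible activator chains fell too, but to different extents. Psme2, the beta chain of PA28, ran from 194 over 237 to 349 CPM in Ifngr1_KO and from 536 over 856 to 1091 CPM in WT. Its change was -1.74 (SE 0.15, 95% interval -2.07 to -1.41), which left 30.0% of the WT level. Psme1, the alpha chain, ran from 165 over 245 to 320 CPM in Ifngr1_KO and from 324 over 452 to 570 CPM in WT. Its change was -0.97 (SE 0.13, 95% interval -1.26 to -0.68), which left 51.1% of the WT level. For Psme1 the gap between the groups was narrow, with 320 CPM in the highest Ifngr1_KO library, that of mouse 7, against 324 CPM in the lowest WT library, that of mouse 2.

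Of the 10 genes, 5 fell at an adjusted p under 0.05 and none rose, against 2.32% of all 9851 genes tested that fell and 0.477% that rose. The quasi-likelihood test of edgeR was used with a term for each mouse, and p-values adjusted by Benjamini-Hochberg over all genes tested were 1.0e-05 for Psmb9, 2.0e-05 for Psmb8, 7.3e-05 for Psme2, 1.4e-04 for Psmb10 and 0.00171 for Psme1. Among the members that did not fall, 1 gene, Psmb5, was higher at an unadjusted p under 0.05, and neither DESeq2 nor limma-voom called any member higher. Each of the 5 was lower in Ifngr1_KO in 8 of 8 mice. All 8 Ifngr1_KO libraries lay below all 8 WT libraries for each of the 5 and for 1.48% of all genes tested. Ordered by fold change, with the deepest fall as number 1, they stood at place 195 (Psmb9), 201 (Psmb10), 226 (Psme2), 274 (Psmb8) and 689 (Psme1) among the 9851 genes. All 5 were also called with the mitochondrial share as a covariate, at -1.75 for Psmb8, -1.99 for Psmb9, -2.13 for Psmb10, -1.13 for Psme1 and -1.84 for Psme2.

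None of the constitutive catalytic subunits was called. Psmb5, the chymotrypsin-like subunit, ran from 151 over 224 to 328 CPM in Ifngr1_KO and from 143 over 187 to 216 CPM in WT. The Ifngr1_KO library was the higher one in 7 of 8 mice, and the log2 fold change was 0.35 (SE 0.13, 95% interval 0.076 to 0.63, unadjusted p = 0.0173, edgeR adjusted p = 0.186). With the mitochondrial share as a covariate its log2 fold change was 0.094. Psmb6, the caspase-like subunit, averaged 71.2 ± 14.3 CPM in Ifngr1_KO and 68.2 ± 8.97 CPM in WT (SD, n = 8). Its log2 fold change of 0.046 had a 95% interval of -0.23 to 0.32, and it was higher in Ifngr1_KO in 3 of 8 mice. Psmb7, the trypsin-like subunit, averaged 30.0 ± 5.17 CPM in Ifngr1_KO and 31.9 ± 8.20 CPM in WT (SD, n = 8), with a log2 fold change of -0.066 (95% interval -0.42 to 0.29). The groups overlapped for all 3 genes. The intervals bound a change of Psmb6 and Psmb7 in either direction, which does not show that they were level.

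Psme3 and Pomp, which have no inducible form of their own, differed in how steady they were. Psme3 was the most variable member, from 6.02 over 29.7 to 74.3 CPM in Ifngr1_KO and from 6.02 over 36.9 to 56.7 CPM in WT. Mouse 9 gave the lowest library of both genotypes, and of the other 7 mice 4 were higher and 3 lower in Ifngr1_KO. The log2 fold change of Psme3 was 0.043 (SE 0.33, 95% interval -0.69 to 0.78). With the mitochondrial share as a covariate it was 0.83 (SE 0.38, edgeR adjusted p = 0.619). Pomp ran from 28.5 over 39.0 to 75.5 CPM in Ifngr1_KO and from 42.5 over 52.4 to 63.5 CPM in WT, and was lower in Ifngr1_KO in 7 of 8 mice. Mouse 7 was the exception, with 75.5 CPM in its Ifngr1_KO library and 48.8 CPM in its WT library. Pomp had a log2 fold change of -0.39 (SE 0.16, 95% interval -0.75 to -0.030, edgeR adjusted p = 0.260). Without mouse 7 it was -0.53 and was called by edgeR (adjusted p = 0.0168), and limma-voom called it with all mice (-0.48, adjusted p = 0.0391). With the mitochondrial share as a covariate it was -0.72 (SE 0.20, edgeR adjusted p = 0.253).

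**Figure D2:**
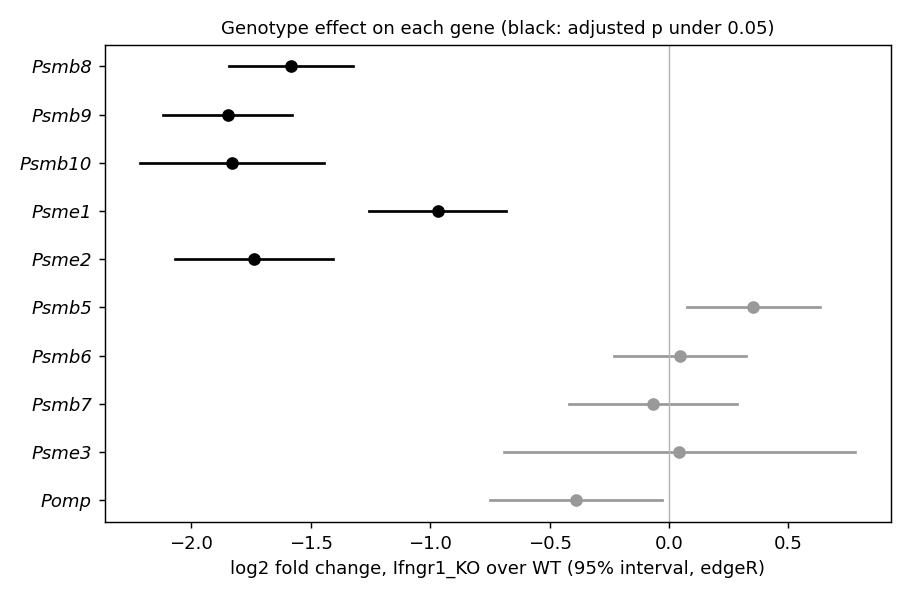
Log2 fold change of each gene, Ifngr1_KO over WT, with its 95% interval from the edgeR fit with mouse as a block (n = 8 mice), black where the adjusted p was under 0.05. The 5 inducible genes lie between -1.85 and -0.97, and the intervals of Psmb6, Psmb7 and Psme3 include 0.

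Whether the inducible forms changed relative to the constitutive ones was tested within each library, since a ratio of 2 genes of 1 library does not depend on how libraries are scaled. The log2 count ratio of Psmb8 to Psmb5 was 0.91 ± 0.35 in Ifngr1_KO and 2.84 ± 0.35 in WT (SD, n = 8). The change within mice was -1.93 ± 0.27, between -2.36 and -1.50, so the ratio was 3.82-fold lower in Ifngr1_KO. The ratio of Psmb9 to Psmb6 was 1.73 ± 0.26 in Ifngr1_KO and 3.62 ± 0.29 in WT on the log2 scale. Its change was -1.89 ± 0.21, the steadiest of the 5 ratios, and it was 3.71-fold lower in Ifngr1_KO. Psmb10 to Psmb7 had a log2 ratio of 1.48 ± 0.35 in Ifngr1_KO and 3.24 ± 0.52 in WT, a change of -1.76 ± 0.55 or 3.38-fold. All 3 ratios fell in each of the 8 mice. The two-sided exact permutation test, which flips the sign of whole mice, gave p = 0.00781 for each, the smallest that 8 pairs allow, and adjusted p = 0.0130 over the 5 ratios.

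The ratios of the activator chains were less certain, because Psme3 varied so much. Psme2 to Psme3 changed by -1.76 ± 1.26 on the log2 scale, and 7 of 8 mice had the lower ratio in Ifngr1_KO (exact test, p = 0.0156, adjusted p = 0.0195). Psme1 to Psme3 changed by -0.99 ± 1.26, again lower in 7 of 8 (exact test, p = 0.0625, adjusted p = 0.0625; 95% interval from the same test -1.98 to 0.12). Mouse 7 was the exception in both, with changes of 1.06 for Psme2 to Psme3 and 1.60 for Psme1 to Psme3. Its Psme3 level was 14.8 CPM in Ifngr1_KO and 56.7 CPM in WT. Without mouse 7 the Psme1 to Psme3 ratio changed by -1.36 (exact sign-flip, adjusted p = 0.0156).

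**Figure D3:**
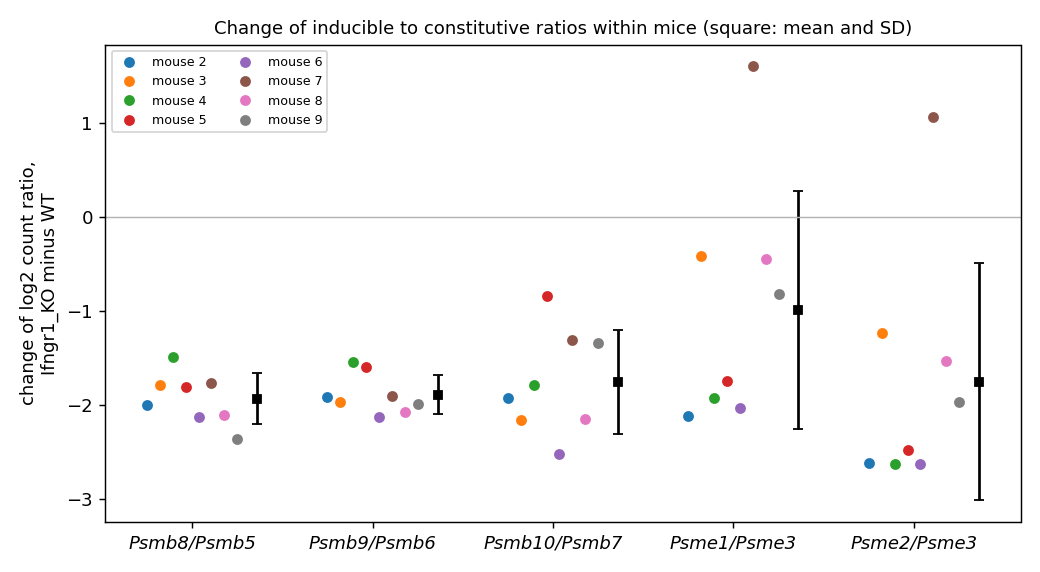
Change of the log2 count ratio of an inducible gene to its constitutive counterpart or, for Psme1 and Psme2, to Psme3. Values are Ifngr1_KO minus WT for each mouse (points) with mean and SD over 8 mice (squares and bars). The catalytic ratios lie below 0 in every mouse, and mouse 7 lies above 0 in both ratios to Psme3.

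Expressed per kb of transcript, to adjust counts for gene length, the inducible gene gave most of the transcript of each catalytic pair in WT. Whether reads covered the transcripts of both genes evenly was not tested. At the chymotrypsin-like position Psmb8 took 41.9 to 62.1% of the pair in Ifngr1_KO (median 50.4%) and 74.4 to 85.0% in WT (median 79.1%). At the caspase-like position Psmb9 took 58.4 to 69.9% in Ifngr1_KO (median 67.1%) and 84.1 to 91.0% in WT (median 87.4%). At the trypsin-like position Psmb10 took 64.3 to 77.2% in Ifngr1_KO (median 70.0%) and 83.9 to 93.7% in WT (median 88.7%). The groups did not overlap at any of the 3 positions. These are shares of transcript, and the share of each subunit in assembled cores was not measured. In Ifngr1_KO, Psmb8 and Psmb5 stood at 272 ± 56.0 and 263 ± 63.5 CPM per kb, a difference within their SD, while in WT they stood at 811 ± 160 and 203 ± 28.7 CPM per kb (SD, n = 8). These shares depend on the length given to each gene, here that of its longest coding transcript. With the longest coding sequence instead, the mean share of Psmb8 was 64.1% in Ifngr1_KO and 87.1% in WT, and with all annotated exons 33.5% in Ifngr1_KO and 65.4% in WT. The share was lower in Ifngr1_KO with each length, but which of Psmb8 and Psmb5 was the higher in Ifngr1_KO depended on it.

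**Figure D4:**
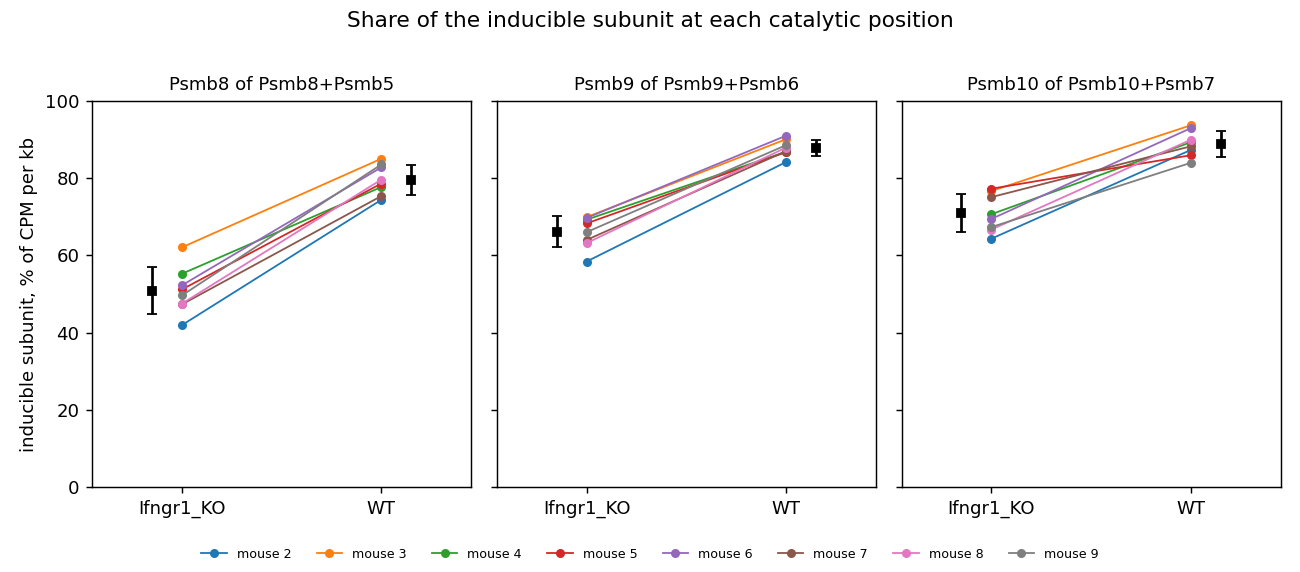
Share of the inducible subunit in the summed CPM per kb of each catalytic pair, for the Ifngr1_KO and WT library of each mouse (points joined by mouse) with mean and SD (squares and bars, n = 8). All Ifngr1_KO libraries lie below all WT libraries, with medians of 50.4% against 79.1%, 67.1% against 87.4% and 70.0% against 88.7%.

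The summed transcript level of each catalytic pair fell as well. The sums hold the same counts as the ratios, so their test is not separate from the fall of the inducible genes. For Psmb8 with Psmb5 the sum was 536 ± 107 CPM per kb in Ifngr1_KO and 1013 ± 165 CPM per kb in WT (SD, n = 8), a change of -0.93 ± 0.33 on the log2 scale. That value too depended on gene length and was -0.60 with all annotated exons and -1.13 with the coding sequence. For Psmb9 with Psmb6 it was 265 ± 54.5 CPM per kb in Ifngr1_KO and 716 ± 142 CPM per kb in WT, a change of -1.44 ± 0.32. For Psmb10 with Psmb7 it was 91.1 ± 22.7 CPM per kb in Ifngr1_KO and 257 ± 56.2 CPM per kb in WT, a change of -1.50 ± 0.45. Each sum was lower in every Ifngr1_KO library than in the WT library of the same mouse (the same exact permutation test, p = 0.00781 each, adjusted p = 0.00781 over the 3 sums). In both genotypes the order of the sums was the same, with the Psmb5 pair highest and the Psmb7 pair lowest. In Ifngr1_KO the constitutive partners Psmb6 and Psmb7 stood at 89.2 ± 17.9 and 25.8 ± 4.46 CPM per kb, against 85.5 ± 11.2 and 27.5 ± 7.07 CPM per kb in WT. Among the activators, Psme2 stood at 253 ± 50.7 CPM per kb in Ifngr1_KO and 845 ± 177 in WT, Psme1 at 212 ± 44.4 in Ifngr1_KO and 413 ± 72.7 in WT, and Psme3 at 13.3 ± 8.90 in Ifngr1_KO and 12.6 ± 6.69 in WT.

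The 5 inducible genes did not all fall to the same extent. In 10 comparisons between pairs of them within mice, 5 differed at an adjusted p under 0.05. The difference between Psmb8 and Psmb9, neighbours in the MHC region, was small and very steady. The log2 ratio of Psmb8 to Psmb9 counts was 0.90 ± 0.07 in Ifngr1_KO and 0.64 ± 0.07 in WT (SD, n = 8), so that Psmb9 fell further by 0.27 ± 0.06, and by 0.17 to 0.37 in each of the 8 mice (the same exact test, p = 0.00781, adjusted p = 0.0156 over the 10 pairs). Psme1 fell less than each of the other 4 in 8 of 8 mice. The difference in log2 change was -0.61 ± 0.15 for Psmb8 minus Psme1, -0.88 ± 0.12 for Psmb9 minus Psme1, -0.86 ± 0.21 for Psmb10 minus Psme1 and 0.77 ± 0.24 for Psme1 minus Psme2 (exact sign-flip p = 0.00781 each, adjusted p = 0.0156). The Psme1 and Psme2 transcripts therefore stood at different proportions in the genotypes. The ratio of Psme2 to Psme1 per kb was 1.20 ± 0.14 in Ifngr1_KO and 2.05 ± 0.22 in WT. Psmb8 minus Psmb10 was 0.24 ± 0.25 and above 0 in 7 of 8 mice, which missed the threshold after adjustment (exact test, p = 0.0469, adjusted p = 0.0781), and was 0.31 without mouse 7 (adjusted p = 0.0260). For the other 4 pairs the difference was not detected. Its 95% intervals ran from -0.24 to 0.17 for Psmb9 minus Psmb10, from -0.34 to 0.11 for Psmb9 minus Psme2, from -0.32 to 0.15 for Psmb10 minus Psme2 and from -0.10 to 0.38 for Psmb8 minus Psme2.

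The mice that marked the ends of the range were the same for every inducible gene. Mouse 6 had the deepest fall of all 5, from -2.57 for Psmb10 to -1.62 for Psme1 on the log2 scale. Mouse 7 had the smallest fall of all 5, from -1.35 for Psmb9 to -0.33 for Psme1, although Ifngr1 itself was lowest in the Ifngr1_KO library of that mouse, at 38.8 CPM, against 287 CPM in its WT library. Mouse 6 had the highest WT level of all 5 genes, and mouse 2 the lowest. The Ifngr1_KO library of mouse 7 was also the highest of its group for Psmb5, Psmb6 and Psmb7, at 328, 97.8 and 40.4 CPM. Leaving mouse 7 out moved the fold changes of the inducible genes to -1.65 for Psmb8, -1.92 for Psmb9, -1.97 for Psmb10, -1.06 for Psme1 and -1.86 for Psme2, with each still called by edgeR.

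Most tested genes of the class I pathway, which takes up proteasome peptides, fell. Among other proteasome subunits, the share called lower by edgeR was near that of all genes. It was above that of all genes at an unadjusted p under 0.05 and by DESeq2 and limma-voom. Of 29 other genes of the 20S core and the 19S cap, the regulator that unfolds tagged proteins, 1 fell (3.45%, near the 2.32% of all genes tested) and none rose, with a median log2 fold change of -0.16, beside 0.046 for all genes tested. At an unadjusted p under 0.05, edgeR had 5 of the 29 lower and 1 higher, against 8.57% lower and 7.69% higher of all genes. DESeq2 called 4 lower and 1 higher, against 5.81% and 4.95% of all genes, and limma-voom 4 lower and none higher, against 4.31% and 1.75%. The summed level of the 12 non-ATPase genes of the 19S cap ran from 415 to 469.9 CPM in Ifngr1_KO and from 470.2 to 558 CPM in WT. It was lower in Ifngr1_KO in 8 of 8 mice, with 10 of 12 fold changes below 0. EdgeR called none of these 12 genes, DESeq2 called 2 lower and limma-voom 1 lower. The summed level of the 7 alpha ring genes was lower in 7 of 8 mice, at 254 to 481 CPM in Ifngr1_KO and 348 to 492 CPM in WT. The 1 gene that fell was Psma5, a subunit of the alpha ring, at 25.2 ± 8.45 CPM in Ifngr1_KO and 61.4 ± 14.7 CPM in WT (SD, n = 8), a log2 fold change of -1.32 (SE 0.21, edgeR adjusted p = 0.00588). Among the subunits that edgeR did not call, Psmb3, a non-catalytic beta subunit, averaged 186 ± 64.1 CPM in Ifngr1_KO and 129 ± 23.4 CPM in WT. Its log2 fold change was 0.48 (edgeR unadjusted p = 0.0110, adjusted p = 0.149), and it was higher in Ifngr1_KO in 7 of 8 mice. DESeq2 called 1 of the 4 non-catalytic beta genes higher. Psmc2, an ATPase of the cap, averaged 46.9 ± 7.41 CPM in Ifngr1_KO and 50.5 ± 7.95 CPM in WT. Psmd8, another subunit of the cap, averaged 94.6 ± 20.1 CPM in Ifngr1_KO and 104 ± 10.8 CPM in WT. Psmd1 and Psmd2, also of the cap, were lower in 8 of 8 mice, with log2 fold changes of -0.96 and -0.90 (edgeR adjusted p = 0.168 and 0.0910). None of 6 assembly chaperones was called by edgeR, which called 2.32% of all genes lower and 0.477% higher. Psmd10 was lower at an unadjusted p under 0.05, at 16.9 ± 2.84 CPM in Ifngr1_KO and 24.2 ± 5.97 CPM in WT, and 1 gene, Psmd5, was higher (edgeR log2 fold change 0.99, adjusted p = 0.0528) and was called by DESeq2 and limma-voom. Of 4 further regulators tested, among them Nfe2l1, a transcription factor that raises proteasome genes when proteasome activity is short, none was called by edgeR, DESeq2 or limma-voom, and none had an unadjusted p under 0.05. Nfe2l1 averaged 40.8 ± 14.7 CPM in Ifngr1_KO and 48.0 ± 11.4 CPM in WT (SD, n = 8).

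Of 11 genes of class I peptide supply and loading, 7 (Tap1, Tap2, Tapbp, Tapbpl, Erap1, H2-K1 and H2-D1; 63.6%, against 2.32% of all genes) fell and none rose, with a median log2 fold change of -1.46, and no gene of it was higher at an unadjusted p under 0.05 or by DESeq2 or limma-voom. Tapbpl, a peptide editor for class I molecules, averaged 62.3 ± 13.2 CPM in Ifngr1_KO and 315 ± 83.6 CPM in WT (log2 fold change -2.32, SE 0.12, edgeR adjusted p = 2.0e-06). H2-K1, a classical class I heavy chain, averaged 2985 ± 546 CPM in Ifngr1_KO and 8833 ± 1190 CPM in WT (-1.57, SE 0.10, edgeR adjusted p = 5.7e-06). Tap1, which shares the printed promoter with Psmb9, averaged 360 ± 127 CPM in Ifngr1_KO and 1447 ± 348 CPM in WT (-2.07, SE 0.19, edgeR adjusted p = 9.8e-05), lower in 8 of 8 mice. Among 7 transcription factors and signalling genes of the interferon response, 4 fell (57.1%, against 2.32% of all genes) and none rose, with a median of -1.18. Again none was higher at an unadjusted p under 0.05 or by either other tool. Irf1, a transcription factor known from human cells to act on the shared promoter of these genes, averaged 482 ± 155 CPM in Ifngr1_KO and 2478 ± 677 CPM in WT (-2.40, SE 0.19, edgeR adjusted p = 4.1e-05).

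**Figure D5:**
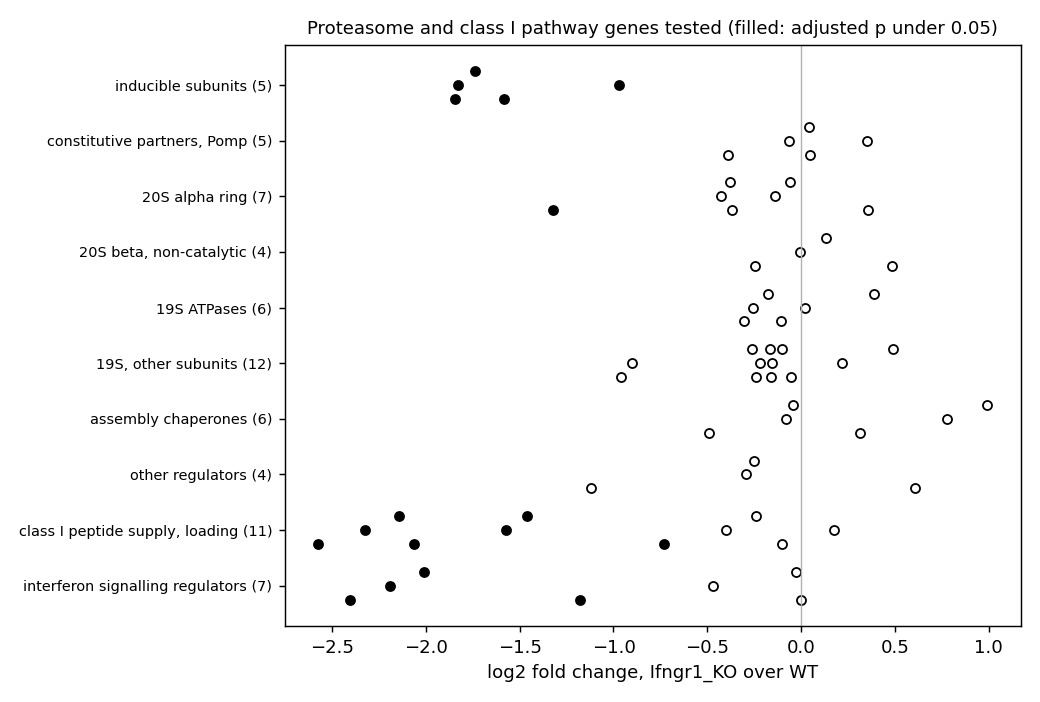
Log2 fold change, Ifngr1_KO over WT, of every tested gene of the proteasome and class I lists (1 point per gene, with the number tested in brackets), filled where the edgeR adjusted p was under 0.05. The 5 inducible subunits lie at or below -0.97, 7 of the 11 class I genes are filled, and 28 of the 29 other core and cap subunits are open points.

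In mm10 coordinates, Psmb9 lies at chr17:34181987-34187764 and Psmb8 at chr17:34197721-34201454, on opposite strands of the MHC region, and Psme1 (chr14:55578123-55581529) and Psme2 (chr14:55587441-55591113) are near neighbours on chromosome 14, also on opposite strands. The constitutive subunits are dispersed, with Psmb5 on chromosome 14, Psmb6 on chromosome 11 and Psmb7 on chromosome 2, and Psmb10 is on chromosome 8. Strand was not kept in these libraries, and where genes overlap their reads cannot be told apart. Annotated exons of Psmb9 share 212 bases with those of Tap1, which had 1628 to 34404 counts per library, against 2514 to 22885 for Psmb9. Exons of Psmb7 share 405 bases with those of Nek6, which had 346 to 2076 counts per library, against 337 to 877 for Psmb7. Psmb8 shares 498 bases with the antisense gene Gm20496, which had at most 20 counts. Psme2b, a copy of Psme2 on chromosome 11, had 30 to 354 counts, against 2820 to 21616 for Psme2, and how reads were divided between these was not tested.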

How the data were processed

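The authors deposited estimated counts for each Ensembl gene in 16 samples as 1 table of whole numbers. The submitters' processing notes name Salmon 0.14.2, DESeq2 1.22.1 and mm10. Neither the role of DESeq2 nor the transcript set is stated in what was read here, and the sample totals differ, as unscaled values do. Salmon's own estimates are fractional, so the deposited estimated counts were taken as rounded. Per the labels' protocols, 1 ng of RNA was primed with oligo-dT and amplified over 13 cycles, and no molecular identifiers are mentioned, so that counts include PCR copies.

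Names, positions and lengths came from GENCODE vM21 of the same build, and promoter windows from RefSeq (GRCm38.p6). Genes were filtered by filterByExpr, scaled by TMM and tested in R 4.3.3 with edgeR 4.0.16 (quasi-likelihood F-test, robust, mouse as a block), adjusted over 9851 genes. SE is the log2 fold change over the square root of F. Ratios of raw counts used a pseudocount of 0.5 and exact sign-flip tests over 8 mice, and their 95% intervals invert that test. The rule for named genes took all 10 members, Ifngr1, genes overlapping a member and, of each fixed list, the 2 called genes with the smallest p or else the 1 with the highest CPM; Psmd5, single markers and the other called genes of the lists were named after their values were seen, and a gene picked by the rule is not reported here. Members and lists were chosen with earlier results of these data known. The tests were checked on simulated data. The counts simulated for edgeR held no differences between mice, so that check did not cover the mouse term, and its outcome is not given here.

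Both libraries of a number came from 1 mouse, per the series design text. Deviations from the group means correlated within mice by 0.176 on average (0.0357 to 0.425) and between mice by -0.0233. Alternatives were no mouse block, other scalings, filters, tools, lengths and pseudocounts, the mitochondrial share as a covariate and leaving out each mouse; DESeq2 1.42.0 and limma 3.58.1 were used. The length of the coding sequence and the marker sums without a called gene were added after seeing the data. No sort date or sequencing batch is given in the labels used here.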

Additional observations from a re-analysis of the deposited data

Results flagged for a closer look

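A total of 5 values stood apart from the other 7 of their group by a gap larger than Dixon's 95% critical value for groups of 8; chance gives about 1 such value in 20 groups, and 31 groups were examined. Of the 5, 4 came from mouse 7. Pomp in its Ifngr1_KO library was 75.5 CPM, against 42.6 CPM in the next highest. Psme2 there was 348.7 CPM, against 264 CPM in the next highest. The change of the Psme1 to Psme3 ratio was 1.60 in mouse 7, against -0.41 in the nearest mouse. That of the Psme2 to Psme3 ratio was 1.06, against -1.24. The remaining value was Psmb6 in the WT library of mouse 5, at 88.7 CPM, against 71.9 CPM in the next highest.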

How the results depend on the processing

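The fall of Psmb8, Psmb9, Psmb10, Psme1 and Psme2 was called under all 16 alternatives, and no member was called higher in any of these; 6 members were called lower with limma-voom and without mouse 7, the sixth being Pomp (-0.48 and -0.53). Without the replicate block on mouse, 5 members were called lower and 0 higher, with 216 and 52 genes in all, and the Psmb8 minus Psmb10 difference of 0.24 passed (exact permutation over 16 libraries, adjusted p = 0.0404); the block changed no other call on the members. Of all genes, 229 were called lower and 47 higher, against 572 and 488 by DESeq2, 425 and 172 by limma-voom, 85 and 8 once the mitochondrial share was a covariate, 124 and 10 at an adjusted p under 0.01, 102 higher with library totals and 31 higher without the low-count filter. With library totals the median log2 fold change over all genes tested was 0.16, against 0.046 with TMM. Leaving out 1 mouse at a time gave 144 (mouse 3 or mouse 8) to 334 (mouse 7) lower and 19 (mouse 3) to 78 (mouse 7) higher, with 145 and 24 without mouse 6, 144 and 26 without mouse 8, and 152 and 22 without mouse 9. Over those fits the Psme1 to Psme3 change ran from -1.36 to -0.83, Psmb8 minus Psmb10 from 0.21 to 0.31, and Psmb9 minus Psmb10 from -0.059 to 0.050 (mouse 7 left out). Directions of members that were not called turned for Psmb7 (0.046 with library totals, and from -0.14 to 0.032 with 1 mouse left out), Psmb6 (-0.16 with the mitochondrial share, and from -0.027 to 0.094) and Psme3 (from -0.11 to 0.30, below 0 without mouse 2, 4, 5 or 6). Shares moved with gene length. With all annotated exons Psmb8 took 33.5% in Ifngr1_KO and 65.4% in WT, and Psmb10 84.6% in Ifngr1_KO and 94.7% in WT. With the coding sequence Psmb8 took 64.1% in Ifngr1_KO and 87.1% in WT, and Psmb9 78.1% in Ifngr1_KO and 92.9% in WT. The causes were not tested. Psme3, at 78 to 1309 counts per library, limits the ratios that use it.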
